A study of Drosophila melanogaster with 6 samples.

Results

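Among the 5209 genes on the array that still go by a CG number, 45 had a clearly lower signal in the larval fat body of *delg* mutants than in control. A gene was taken when its single annotation symbol was CG followed by digits, when the lowest of its 3 control signals was at least 200 units, and when that signal was at least 2.5 times the highest of its 3 mutant signals. Where several probe sets carried the same symbol, the one with the greatest average log2 signal stood for the gene. The values that chose these genes are the values of the only contrast in the series. Their lower signal is therefore described here and not tested.

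A CG number is the provisional name that the genome project gave to each computed gene of *Drosophila melanogaster*. Genes that still carry one have usually no mutant phenotype to be named after, and what is known of them is mostly the protein family to which their sequence belongs. Delg, the product of Ets97D, is an ETS transcription factor and the fly relative of mammalian NRF-2alpha (GABPalpha), which activates nuclear genes for mitochondrial proteins. The larval fat body stores fat, glycogen and protein and serves the roles of both liver and adipose tissue. Carriers that bring in sugars, organic ions and vitamins, and enzymes that act on fatty acids, amino acids and steroids, are part of this work.

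RNA was measured on 6 Affymetrix Drosophila Genome 2.0 arrays, 3 for *delg* mutants and 3 for control. The mutants were delg613/Df(3R)ro80b, in which the delg613 allele carries a stop codon and the other chromosome lacks the locus. The controls were +/Df(3R)ro80b, so that both groups carried 1 copy of the same deletion. Each sample was a pool of 60 fat bodies, and all larvae were 6 days old according to the labels, whose wording is the same for both genotypes. For these arrays the paper names larvae late in the last larval stage, L3, and its supplement speaks of wandering animals. Whether the groups were matched by stage or by age is not settled. Mutant larvae develop more slowly than control larvae, so the effects of developmental stage and of genotype cannot be told apart. Nothing in the labels says whether the 3 pools of a group came from separate cultures, so that p-values measure the spread between these pools only.

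The values are MAS5 signals, which summarise the probe pairs of a probe set on a linear scale and were scaled to a trimmed mean of 500 units on every array. They compare samples for 1 probe set and do not order different genes by abundance. Signals of Ets97D were 71.7, 87.1 and 91.9 in mutants and 135, 122 and 213 in control, which did not overlap. Its log2 fold change of -0.87 (SE 0.38) had a limma adjusted p of 0.267, and a stop codon need not lower the RNA. Fat body markers were high on all arrays, with Lsp2, a larval storage protein, between 57153 and 75546 units. Control replicate 2 stood apart: its 6 salivary gland markers summed to 281, against 196915 to 314596 on the other 5 arrays, and Fbp1, an ecdysone-induced fat body receptor, was at 1103 there, against 65884 and 57207 in the other controls. Mutant replicate 1 had the highest sum of midgut markers, with 42350 units against at most 3251 elsewhere. Values that rest on control replicate 2 are therefore given with and without it.

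Of the 45 genes, 42 were at least 4-fold and 18 at least 8-fold lower in mutants. The median log2 fold change was -2.72, a 6.58-fold lower signal, with a range of -5.92 to -1.61, while the median over all 11982 genes was -0.09. All 45 passed limma at an adjusted p under 0.05, compared with 3.75% of all genes that were called lower, and in all 45 every mutant signal was below every control signal, compared with 15.6% of all genes. The rule required such values, so nothing is read from either count. The genes made up 3.01% of the 1493 CG-numbered genes whose controls were all at 200 units or more. Of the 3197 genes with other names that met the same signal minimum, 54 (1.69%) passed both thresholds. In the opposite direction, 75 CG-numbered genes passed the mirrored rule.

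Most of these genes were lower rather than switched off. The median signal of an array, below which many genes with little or no RNA lie, was between 55.5 and 64.8 units in mutants. Only CG9396 and CG12773 lay below that median in all 3 mutants. In 33 genes no mutant was below it, in 27 the highest mutant signal still reached 200 units, and in 7 every mutant was at 1000 units or more. The plot of signals by array shows both kinds side by side.

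**Figure D1:**
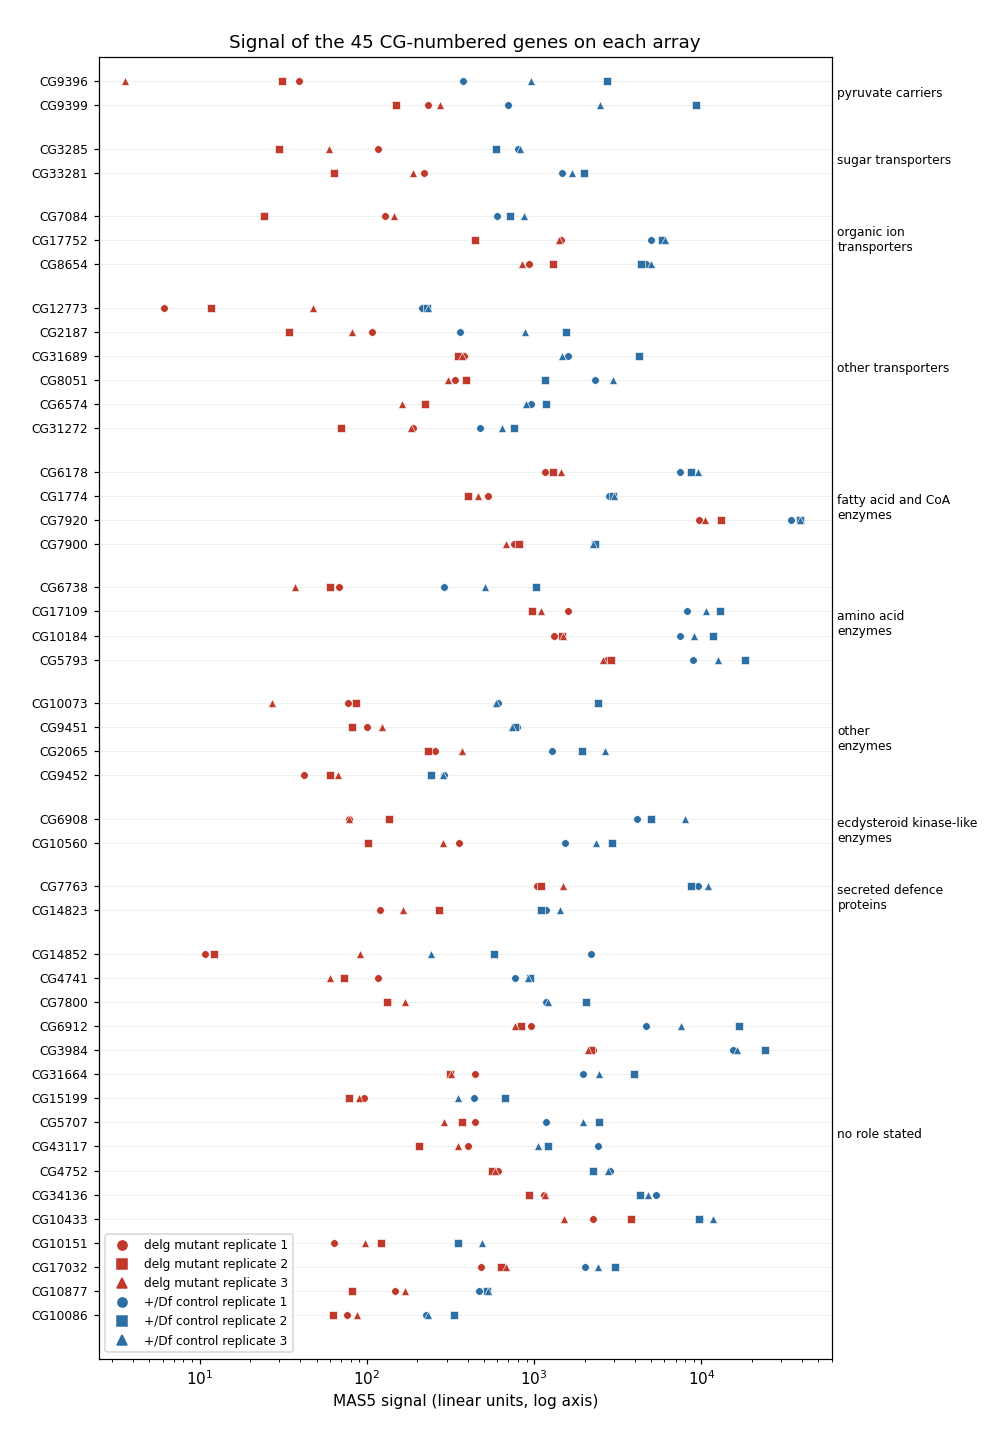
MAS5 signal of each of the 45 genes (rows, grouped by the role of their protein family) on each of the 6 arrays, on a log axis; red symbols are *delg* mutants, blue symbols are controls, and the shape gives the replicate. Every red symbol lies left of every blue one, as the rule required; mutant signals span 3.60 to 13076 units and control signals 214 to 38957, and in CG9396 and CG9399 the blue square of control replicate 2 lies far right of the other controls.

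Transporters made up 13 of the 45 genes, with a median 9.40-fold lower signal in mutants. With all 6 arrays the largest fold was that of CG9396, a member of the mitochondrial pyruvate carrier family, whose proteins bring pyruvate across the inner mitochondrial membrane. Its signals were 39.1, 31.0 and 3.60 in mutants and 373, 2732 and 957 in control. All 3 mutant signals lay below the median of their array and the controls spread over 7.32-fold, so the size of the difference is loosely set. The mutants were 60.7-fold lower with all arrays, 36.6-fold without control replicate 2, 28.5-fold without mutant replicate 3, 93.9-fold without mutant replicate 1 and 99.0-fold without control replicate 1. With 100 units added before the log it was 9.09-fold, and CG6908 was then 28.5-fold lower; without control replicate 2, too, CG6908 had the larger fold of these 2 genes (60.9). The gene beside it, CG9399, encodes a carrier of the same family that the gene table also lists as dMPC2. CG9399 gave 231, 150.0 and 275 units in mutants and 698, 9265 and 2472 in control, a 11.9-fold lower signal that became 6.19-fold without control replicate 2 and 22.6-fold without control replicate 1. Its control replicate 2 was 5.85 times the mean of the other controls, the highest such ratio among the 45 genes. CG9399 met the factor of 2.5 narrowly, with a ratio of 2.54, its lowest control being replicate 1.

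A pair of sugar transporter genes of the SLC2 type behaved alike and had tighter controls. CG33281 was at 221, 63.4 and 187 units in mutants, against 1456, 1995 and 1693 in control. CG3285 was at 116, 29.9 and 59.6 units in mutants, against 797, 591 and 827 in control. Both were close to 12-fold lower, 12.3-fold and 12.4-fold, and in both mutant replicate 2 was the lowest sample. A second probe set of CG33281 also passed both thresholds, with a log2 fold change of -3.71.

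Of the 3 SLC22-type organic ion transporters, which carry charged metabolites and drugs over the plasma membrane, CG7084 is described first. Its signals were 129, 24.1 and 145 in mutants and 599, 720.5 and 866 in control, 9.40-fold lower with all arrays and 5.27-fold lower without mutant replicate 2. CG17752 had 1439, 441 and 1398 units in mutants and 4996, 5772 and 6051 in control, 5.82-fold lower. In both, mutant replicate 2 was well below the other mutants, while the controls lay within 1.5-fold. CG8654 did not share this, with 936, 1289.8 and 841 units in mutants and 4638, 4365 and 5000.5 in control, 4.64-fold lower. Organic ion transporters also work in the Malpighian tubule, the fly's excretory organ, and 2 of its 3 markers had a named probe set. These 2 summed to 677 to 918 units in mutants and 2367 to 5098 in control. Irk3, a potassium channel, was called lower (-2.22, limma adjusted p 0.00497), and Nha1, a sodium/proton antiporter, was not (0.35, adjusted p 0.858). Most of that sum came from Irk3 on every array, since Nha1 was at most 113 units. The part of tubule RNA in the differences of the 3 transporters was not tested. In pooled tissue, fewer cells of a type and less RNA per cell cannot be told apart.

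The remaining 6 transporters came from as many families. CG12773, a cation-chloride cotransporter of the SLC12 type, was at 6.14, 11.7 and 47.4 units in mutants and 214, 227 and 230.3 in control. It had the lowest control signal of the 45, and its controls agreed within 1.08-fold, but its mutants, all below the median of their array, spread over 7.71-fold. The difference was 14.9-fold with all arrays, 9.49-fold without mutant replicate 1, 26.3-fold without mutant replicate 3 and 2.69-fold with 100 units added before the log. CG2187, a sodium-coupled transporter listed also as dSLC5A6, had 107, 34.1 and 81.2 units in mutants and 359, 1556 and 885 in control. It was 11.9-fold lower with control replicate 2 and 8.46-fold lower without it. CG31689, an ABC transporter of the G subfamily, showed 380.2, 351 and 368 units in mutants and 1599, 4252 and 1460.1 in control, so that its difference fell to 4.17-fold lower without control replicate 2, against 5.87-fold with it. CG8051, a monocarboxylate transporter of the SLC16 type, was the reverse case, with 336, 394 and 303 units in mutants and 2311, 1154 and 2948 in control. Its control replicate 2 was the lowest control, and the difference was 5.81-fold with that sample and 7.63-fold without it. CG6574, a folate transporter of the SLC19 type, had 221, 223 and 162 units in mutants and 955, 1175 and 897 in control. CG31272, of the major facilitator superfamily, was nearest to the factor threshold, with 189, 69.6 and 184 units in mutants and 473, 758 and 646 in control and a ratio of 2.502. The differences of CG6574 and CG31272 were 5.02-fold and 4.58-fold. A second, dim probe set of CG31689 did not pass the thresholds and pointed the other way, with a log2 fold change of 1.19.

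Enzymes formed the next group, 14 genes with a median 6.63-fold lower signal in mutants. The widest gap between the groups belonged to CG6908, an ecdysteroid kinase-like enzyme, a family thought to phosphorylate steroids and other small molecules. CG6908 was at 78.3, 136 and 77.9 units in mutants and 4114, 5015 and 7963 in control. Its lowest control was 30.2 times its highest mutant, and the difference was 58.2-fold, or 60.9-fold without control replicate 2. CG10560 belongs to the same family and had 354, 101 and 283 units in mutants, against 1519.5, 2919 and 2341 in control, 10.1-fold lower.

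Enzymes that act on fatty acids and coenzyme A esters had close replicates in both groups. CG6178, related to acyl-CoA synthetases and to firefly luciferase, had 1154, 1299.8 and 1454 units in mutants and 7453, 8671 and 9595 in control, 6.58-fold lower. CG1774, an acyl-CoA thioesterase, which splits the ester that the synthetase makes, had 530.5, 402 and 461 units in mutants and 2799.7, 2964 and 2983 in control, 6.32-fold lower. CG7920 belongs to the acetyl-CoA hydrolase and transferase family and had 9700.1, 13076 and 10541 units in mutants, against 34522, 38957 and 38939.8 in control. It remained far from off, with a difference of 3.40-fold, and a second probe set that passed the thresholds gave -1.71 on the log2 scale. A further, dim probe set of CG7920 did not pass them, and its signals overlapped between the groups (-0.62). CG7900, related to fatty acid amide hydrolase, showed the smallest difference of the 45 genes, 3.06-fold, with 756, 813 and 681 units in mutants and 2308, 2301 and 2261 in control. Its controls differed by only 1.02-fold, and its lowest control was 2.78 times its highest mutant, against a median of 3.84 over the 45 genes.

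Amino acid enzymes were highest in control replicate 2 in all 4 cases. The aminoacylases CG17109 and CG6738 release amino acids from their acylated forms. CG17109 was at 1587, 966 and 1104 units in mutants and 8222, 12941 and 10701 in control, 8.76-fold lower. CG6738 was at 68.1, 60.5 and 37.3 units in mutants and 289, 1030.3 and 508 in control, and its difference was 9.96-fold with control replicate 2 and 7.16-fold without. CG10184, related to threonine aldolase, had 1319.8, 1471 and 1481 units in mutants and 7451, 11799.8 and 9079.9 in control, 6.52-fold lower. CG5793 carries the domain of fumarylacetoacetate hydrolase, an enzyme of tyrosine breakdown, and was 4.62-fold lower, with 2741, 2887 and 2569 units in mutants and 8864, 18113 and 12519.8 in control.

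The other 4 enzymes were unlike each other. CG10073, a peptidase of the M28 family, had 77.3, 85.5 and 27.0 units in mutants and 606, 2421 and 588 in control, 16.9-fold lower with control replicate 2 and 10.6-fold without it. The histidine acid phosphatases CG9451 and CG9452 are neighbours on the chromosome. CG9451 was at 100.04, 81.0 and 123 units in mutants, against 785, 769 and 738 in control. CG9452 was at 42.3, 60.3 and 67.4 units in mutants, against 287, 242 and 284 in control. In both genes the controls agreed within 1.5-fold, and the differences were 7.66-fold and 4.87-fold. CG2065, related to retinol dehydrogenases, had 256, 231 and 369 units in mutants and 1274, 1923 and 2661 in control, 6.68-fold lower.

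Secreted proteins with a place in immune defence accounted for 2 genes. CG7763, a C-type lectin, which binds sugars on cell surfaces, had 1043, 1104 and 1491 units in mutants and 9591, 8648 and 10963 in control, 8.09-fold lower. CG14823, a lysozyme of the invertebrate type, had 119.9, 271 and 163 units in mutants and 1170.1, 1103 and 1423 in control, 7.02-fold lower. Another probe set of CG14823 passed both thresholds with a log2 fold change of -3.17, and a further, dim one did not. The 7 markers of hemocytes, the blood cells, summed to 2119 to 3715 units in mutants and 962 to 3473 in control, and Pxn and eater among them were called higher. Of the others, Hml, NimC1 and ItgaPS4 were also above 0, and PPO1 (-0.79) and PPO2 (-0.69) were below it. None of these passed the limma test, and the sum mixes both directions. The part of hemocyte RNA in the signals of CG7763 and CG14823 was not tested.

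For 16 genes no role is stated here. CG14852 had the largest fold among them with all arrays, but a narrow gap, its lowest control being 2.67 times its highest mutant. Its signals were 10.8, 12.2 and 90.9 in mutants and 2181, 578 and 243 in control. Its difference of 29.4-fold came with controls that spread over 8.98-fold and a mutant replicate 3 well above the other mutants. It was 16.3-fold without control replicate 1, 49.0-fold without control replicate 3, 58.6-fold without mutant replicate 3 and 6.07-fold with 100 units added before the log. The gap was wider in CG4741, with 116, 72.5 and 60.3 units in mutants and 768, 943 and 921 in control, 11.0-fold lower. A second probe set of CG4741 did not pass the thresholds. It had 118, 24.1 and 44.6 units in mutants and 184, 58.7 and 42.5 in control, a log2 fold change of -0.62. CG7800 had 134, 131 and 169 units in mutants and 1171, 2051 and 1201 in control, 9.92-fold lower. The adjacent genes CG6912 and CG3984 kept clear signals in both genotypes. CG6912 showed 961, 839 and 769 units in mutants and 4637, 16863 and 7568 in control, and its difference was 9.84-fold with control replicate 2 and 6.95-fold without it. CG3984 showed 2255, 2198 and 2089.5 units in mutants and 15415, 24092 and 16271 in control, 8.36-fold lower. The mutants of CG3984 were the closest in the set, within 1.08-fold of each other. CG10433 stayed above 1000 units in every mutant, with 2248, 3785 and 1501 units in mutants and 9748, 9641 and 11776 in control.

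The other 10 lay between 3.48-fold and 7.53-fold lower. CG31664 had 441, 314 and 316 units in mutants and 1958, 3930.2 and 2428 in control. CG15199 had 96.4, 78.5 and 89.8 units in mutants and 436, 669 and 352 in control. In these 2 genes, as in CG6912 and CG7800, control replicate 2 was at least 1.5 times each of the other controls. CG5707 had 441, 368 and 288 units in mutants and 1173, 2455 and 1958 in control, whereas in CG43117 (402, 204 and 349 units in mutants and 2409.9, 1207 and 1060.3 in control) replicate 1 was the high control. The range of the other 6 was narrower, between 3.48-fold for CG10086 and 4.45-fold for CG34136. CG4752 had 606, 561 and 581 units in mutants and 2821, 2248 and 2743 in control, and CG34136 had 1148, 928 and 1167 in mutants and 5375, 4269 and 4780.2 in control. CG17032 was at 481, 632 and 676 units in mutants, against 2019, 3036 and 2396 in control. All 3 had replicates within 1.5-fold in mutants, and the remaining genes CG10151, CG10877 and CG10086 were dim, at or below 168 units in every mutant. CG10151 had 63.8, 121 and 97.4 units in mutants and 348, 351 and 484 in control, CG10877 had 147, 81.3 and 168 in mutants and 469.6, 522 and 531 in control, and CG10086, next to the signal threshold, had 75.6, 62.8 and 87.2 in mutants and 227, 333 and 230.3 in control.

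How far single samples set these values differed from gene to gene. The controls lay within 1.5-fold in 22 genes and more than 2-fold apart in 14 (31.1%), compared with 25.0% of the 4690 genes whose controls were all at 200 units or more. Control replicate 2 was the highest control in 23 of the 45 (51.1%, compared with 39.9% of those 4690), replicate 3 in 15 and replicate 1 in 7. Control replicate 2 exceeded both other controls by at least 1.5-fold in 10 of the 45, compared with 14.6% of those 4690. Among the mutants, replicate 2 was the lowest in 21 genes, replicate 3 in 14 and replicate 1 in 10. Without control replicate 2 the rule still held every log2 fold change below 0, so only the sizes are compared. The median was -2.65 without that sample, against -2.72 with it, so the median moved little. The folds of CG9396, CG9399 and CG10073 moved more. In 6 genes, these 3 with CG7084, CG12773 and CG14852, leaving out some single sample moved the fold by over 1.5 times.

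**Figure D2:**
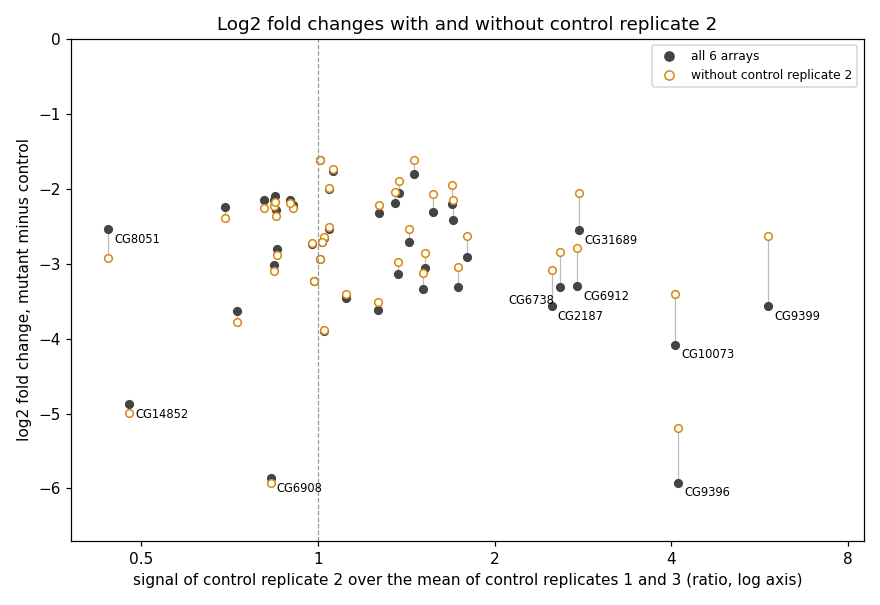
Log2 fold change of each of the 45 genes (vertical axis, mutant minus control; filled with all 6 arrays, open without control replicate 2) against the signal of control replicate 2 divided by the mean of control replicates 1 and 3 (horizontal log axis). Open symbols move up at the right, most for CG9399 at a ratio of 5.85, and down at the left, as for CG8051 at 0.439. All stay below 0, as the rule required.

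Just inside the factor threshold lay CG31272 with 2.502 and CG9399 with 2.54, and just outside it CG4995 with 2.48 and CG9436 with 2.39. CG4995 had 604, 1115 and 757 units in mutants and 2897, 4588 and 2765 in control. On the signal threshold, the lowest controls of CG12773 and CG10086 were 214 and 227, while those of CG13312 and CG15142, which passed the factor, were 173 and 153. The set thus has no natural edge at either threshold.

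The rule used no position, so the genes beside the 45 were tested. Neighbours that met the rule, all lower, were members and were left out of the counts, while higher neighbours stayed. The shares over all genes set beside these counts had no such removal. Adjacent members formed 3 pairs, CG9396 with CG9399, CG9451 with CG9452, and CG6912 with CG3984. Of the 76 non-member neighbours with a named probe set, 7 (9.21%) were called lower and 7 (9.21%) higher, compared with 3.75% and 4.45% of all genes. Their median log2 fold change was -0.52, compared with -0.09 over all genes, and 53 of the 76 (69.7%) were below 0, compared with 54.4% of all genes. Over all genes 449 calls were lower and 533 higher, and 287 lower and 686 higher after median centring of the arrays; 4 neighbours were then called lower. The clearest was salt, beside CG2187 and listed in the gene table as dSLC5A7, at 121, 44.5 and 114 units in mutants and 1571, 1826 and 2001 in control. It fell by 4.40 on the log2 scale (SE 0.39, limma adjusted p 0.000827), and the adjusted p was at most 0.00796 when any 1 array was left out. Next was ssp7, beside CG15199, with 242, 252 and 351 units in mutants and 1952, 3641 and 1631 in control (-3.03, SE 0.32, adjusted p 0.00163, at most 0.0129 without any 1 array). The other 5 lower calls were CG17751, Smvt, CG6733, CG9257 and CG15408, and the higher ones Rassf, Hrs, Rdh1, CG18249, Prip, Drip and CG5191. Each of these 12 was lost without at least 1 array. The lower count was 5, 3 and 2 without mutant replicates 1, 2 and 3 and 6, 9 and 2 without control replicates 1, 2 and 3. The higher count was 0, 2 and 0, and 6, 7 and 0, in the same order.

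Around 9 of these places the genes were followed in chromosomal order, 48 genes in all. Of the 33 others with values, 6 were called lower and 3 higher; over all genes 3.75% and 4.45% were, and these runs were picked after the members were known, so the counts only describe them. In the SLC5 run, salt, CG2187 and Smvt, a multivitamin transporter relative, lay side by side and all were lower, while CG1910 beside them was not past the test (-0.18, adjusted p 0.651). Smvt had 32.4, 6.30 and 33.6 units in mutants and 142, 867 and 317 in control (-4.16, SE 0.86, adjusted p 0.0266), a call lost without control replicate 2 or 3 or any 1 mutant, with an adjusted p of up to 0.0986. In the aminoacylase run, CG6726 (-0.95, SE 0.16, adjusted p 0.0133) and CG6733 (-1.12, SE 0.24, adjusted p 0.0323) were called lower, by less than the members CG17109 (-3.13) and CG6738 (-3.32) in that run. Both calls were lost without control replicate 3 or any 1 mutant, with adjusted p up to 0.0727 and 0.129. The fifth gene of that family, CG17110, did not pass the test (-0.61, adjusted p 0.627), and Rassf, at the end of the run, was called higher. In the sugar transporter run, CG15408 was called lower (-1.58, adjusted p 0.0402, up to 0.138 without 1 array) and CG33282 was not (-2.21, adjusted p 0.31). At the end of the same run E23, an ABC transporter induced by ecdysone, rose, with 3633, 3486 and 4158 units in mutants and 215, 40.6 and 159 in control (5.07, SE 0.55, adjusted p 0.00171). In the SLC22 run, CG17751 was called lower beside CG17752 (-2.40, adjusted p 0.022, lost without control replicate 1 or 3 or mutant replicate 3, up to 0.0975), CG16727 on its other side was not (-0.15, adjusted p 0.878), and CG6231 was called higher (1.93, adjusted p 0.037, up to 0.170 without 1 array). No other gene was called in the remaining 5 runs.

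**Figure D3:**
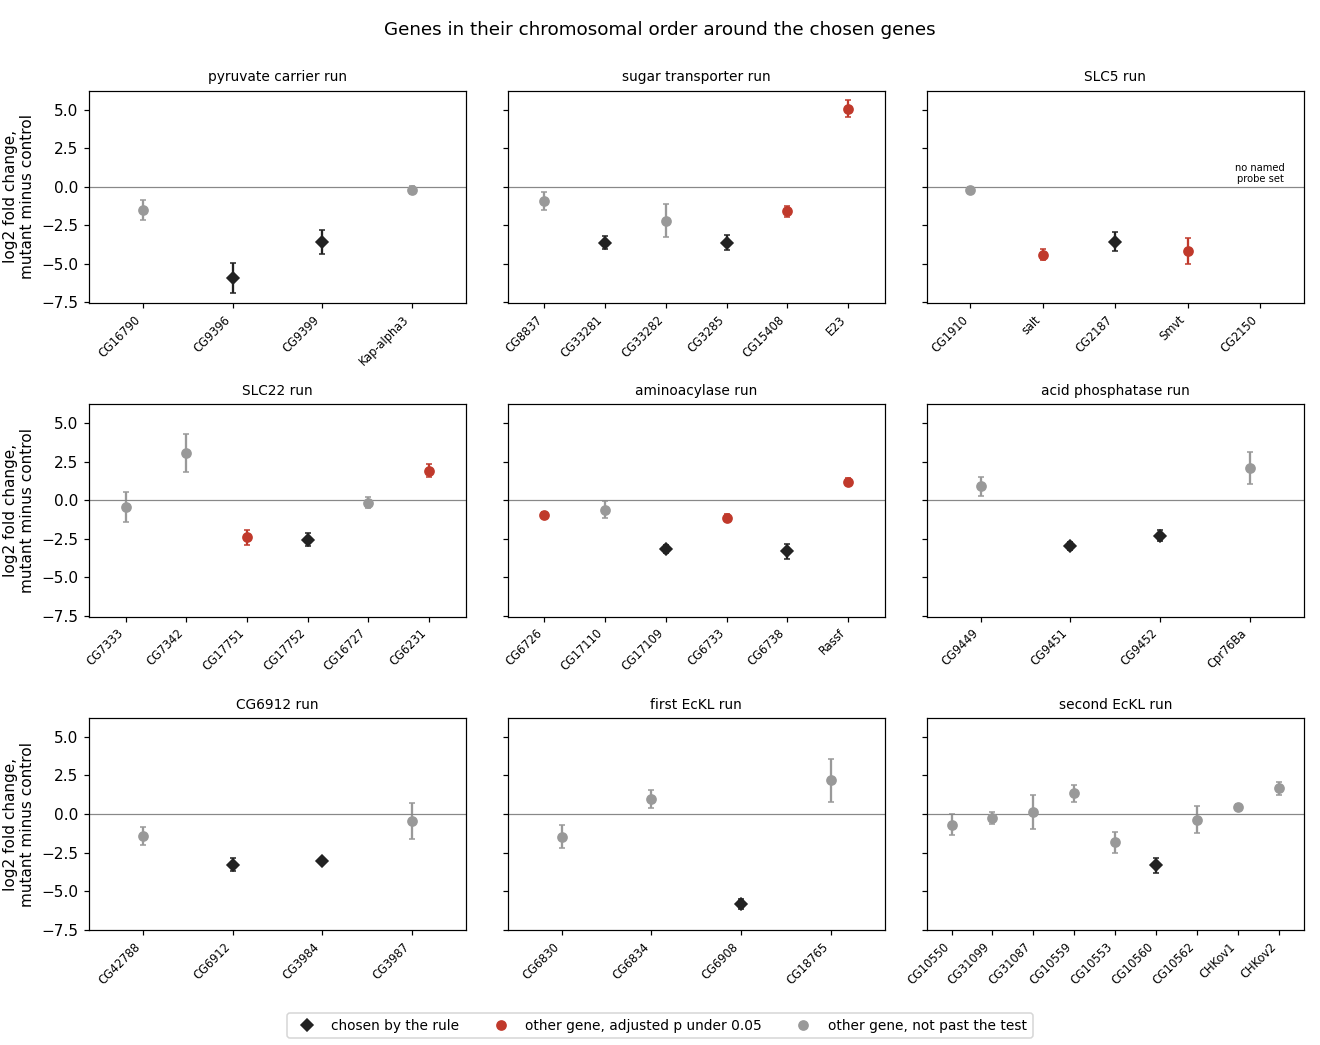
Log2 fold change (mutant minus control, with its SE) of genes in chromosomal order in 9 runs around the chosen genes; black diamonds were chosen by the rule, red circles are other genes with an adjusted p under 0.05, and grey circles are other genes. In the SLC5 run salt at -4.40 and Smvt at -4.16 lie beside CG2187 at -3.57, whereas in the sugar transporter run E23 at 5.07 stands 2 places from CG3285.

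Relatives of the 45 genes in the same protein families did not share one direction. Of 104 non-member relatives in 14 families, 12 (11.5%) were called lower and 16 (15.4%) higher, compared with 3.75% and 4.45% of all genes, and their median log2 fold change was 0.02. The rule took members, all lower, out of these families and took out no higher gene. The balance of lower and higher calls among the rest was therefore partly set by the rule. Acsf2, the acyl-CoA synthetase relative of CG6178, was lower, with 302, 463 and 270.2 units in mutants and 2276, 4002 and 1649.5 in control (-2.88, SE 0.35, adjusted p 0.00292, at most 0.0269 without any 1 array). Glut1, the glucose transporter related to CG33281 and CG3285, was higher, with 902, 897 and 1116 units in mutants and 147, 64.6 and 59.7 in control (3.55, SE 0.37, adjusted p 0.00159, at most 0.0194). Among these 104, E23 and chk, a monocarboxylate transporter related to CG8051, were the other calls that held without any 1 array, both higher. The lower call of salt, also listed as dSLC5A7, held too, but salt was counted only among the neighbours. The lists of neighbours, relatives and carriers share genes, so their counts are not separate observations. Among the called relatives, CG17751, Smvt, CG6733 and CG15408 (lower) and Rdh1 and CG5191 (higher) were already counted as neighbours. The higher call of chk is counted again below among the carriers of pyruvate and related acids. Among SLC22-type transporters 2 of 17 relatives were called lower and 5 higher, and among ABCG-type transporters 1 of 13 was called lower and 4 higher. Among SLC2-type transporters 3 of 20 were called lower and 2 higher, and among the SLC5-type transporters listed 2 of 11 were called lower and none higher. The family lists were written by hand and need not be complete, and the SLC5-type one leaves out salt. The lower count over all relatives was 5, 3 and 1 without mutant replicates 1, 2 and 3 and 7, 12 and 3 without control replicates 1, 2 and 3, and the higher count was 4, 4 and 3, and 18, 19 and 5.

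**Figure D4:**
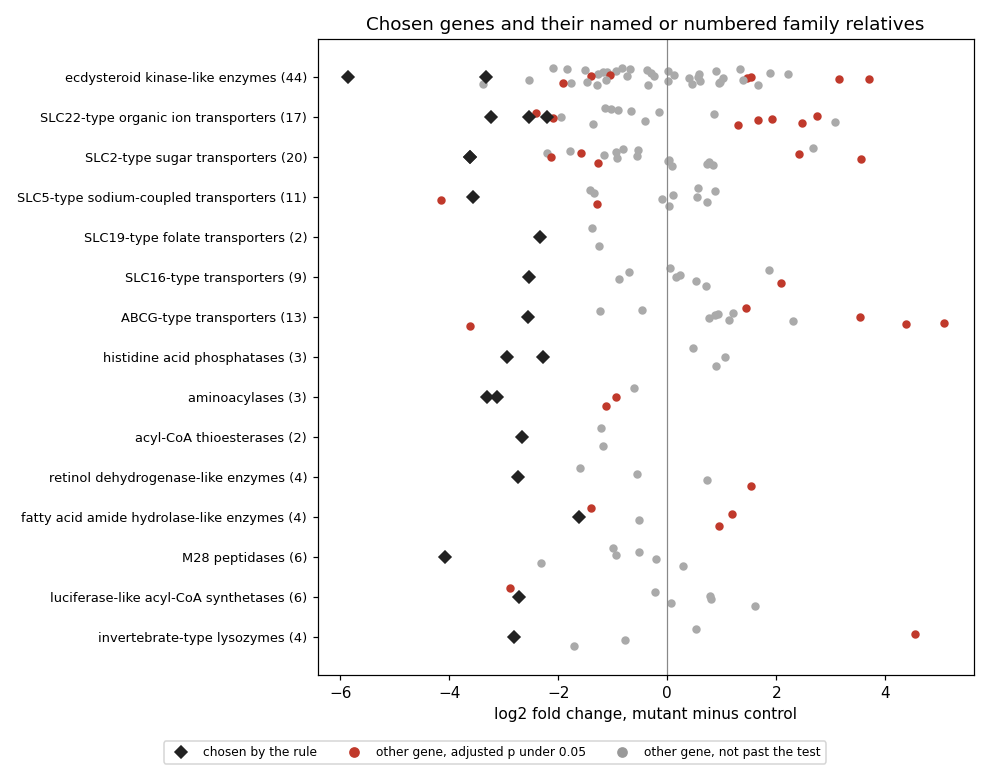
Log2 fold change (mutant minus control) of the chosen genes (black diamonds) and of their relatives (circles, red where the adjusted p was under 0.05), 1 protein family per row, with the number of relatives in brackets. Relatives lie on both sides of 0: Glut1 at 3.55 is in the row of CG33281 and CG3285, and the aminoacylase relatives lie between -1.12 and -0.61.

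The ecdysteroid kinase-like family was the largest followed. Of its 44 other genes, 3 were called lower (6.82%, compared with 3.75% of all genes) and 4 higher (9.09%, compared with 4.45%), and the median was -0.27. The one with the smallest adjusted p ran opposite to CG6908 and CG10560. The rule had taken these 2 lower genes out of the family and could take out no higher one. That order was therefore partly set by the rule. CG31436 had 2131, 2649 and 2076 units in mutants and 262, 294 and 216 in control (3.15, SE 0.21, adjusted p 0.000268, at most 0.00621 without any 1 array). CG31288 (1.46, adjusted p 0.00602) and CG31102 (1.53, adjusted p 0.00694) were also higher and held without any 1 array, and CG31380 (3.70, adjusted p 0.0115) was lost without any 1 mutant (up to 0.0687). The lower genes were CG31098 (-1.40, adjusted p 0.0128), CG2004 (-1.05, adjusted p 0.0414) and CG9259 (-1.91, adjusted p 0.0419), and each was lost without some arrays, with adjusted p up to 0.0628, 0.154 and 0.151. Without mutant replicates 1, 2 and 3 the lower count was 2, 0 and 0, and without control replicates 1, 2 and 3 it was 3, 5 and 1.

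The carriers of pyruvate and related acids included the partner of CG9396 and CG9399. Pyruvate carriers work as complexes of unlike subunits, and Mpc1, the partner subunit, had 1637, 1722 and 1040.4 units in mutants and 4388, 14234 and 5415 in control. Mpc1 fell by 2.28 on the log2 scale (SE 0.42, limma adjusted p 0.0178), with control replicate 2 again the highest sample by far, and without that sample the difference was -1.77 (adjusted p 0.00353). This call was lost without control replicate 3 or any 1 mutant, with an adjusted p of up to 0.0951. Of the 8 carriers tested, 2 (25.0%) were called lower and 1 (12.5%) higher, compared with 3.75% and 4.45% of all genes. CG8028, the second lower gene, had 14.3, 1.37 and 24.4 units in mutants and 129.9, 272 and 176 in control (-4.55, SE 1.07, adjusted p 0.0423), and was lost without any 1 array except mutant replicate 2 (up to 0.135). The single higher gene was chk, with 3798, 3626 and 4720.4 units in mutants and 748, 1435 and 803 in control (2.08, SE 0.27, adjusted p 0.00403, at most 0.0364 without any 1 array).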

How the data were processed

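The deposited values are linear microarray intensities, the MAS5 signals that the authors computed with GCOS 1.4 per the submitters' processing notes; perfect-match and mismatch probes, background and array scaling enter them, so no background correction was redone. Total RNA of 30 ng per sample was amplified in 2 cycles before labelling, per the labels. After 183 control probe sets were left out, 18769 were tested. Of these, 13647 had 1 gene symbol in the platform annotation, 402 several and 4720 none, and only the first were named. All 45 chosen genes matched the RefSeq gene table (used for names and gene order only) by Entrez number. Probe sets of 6 of them carry an _s_at or _a_at suffix and may match more than 1 transcript.

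Differences were fitted with limma 3.58.1 in R 4.3.3 (lmFit, eBayes with trend) on log2 signal, mutant minus control, p-values being adjusted by Benjamini-Hochberg across the 18769 probe sets (threshold 0.05), after tests on simulated data. A fold lower is 2 to the power of the size of the fitted log2 difference. An exact permutation test of 3 against 3 cannot go below 0.1. The members and gene lists were chosen with earlier results of these data known, and the family relatives and gene runs after the members were known, so none of these counts is independent support. All 45 genes were named, with values in every sample; of tested lists, those past the test, up to 6 per direction by p, plus run genes chosen after their values were seen. Alternatives were other scalings, thresholds, an added constant of 100, brighter probe sets only, the methods' t-test, a replicate block and leaving out each sample.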

Additional observations from a re-analysis of the deposited data

How the results depend on the processing

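The rule gave 45 genes as written, 36 after median scaling, 43 after quantile normalization, 46 when the thresholds came before the choice of probe set, 72 with a factor of 2, 32 with 3, 52 with a signal minimum of 100 and 36 with 400. Without 1 sample it gave 47 to 72 genes, and since fewer samples can only relax it, this says nothing of stability. Adding 100 before the log moved 19 of the 45 by over 1.5 times, CG9396 to -3.18 and CG12773 to -1.43. All 45 kept a negative log2 fold change under every alternative run. The rule set every control above every mutant, so leaving out a sample or adding 100 could not reverse a sign. Nothing of stability is read from this.

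Over all genes, 449 were lower and 533 higher. Median centring, which shifted the median gene by 0.14, gave 287 and 686, so that the share of higher calls was 70.5%, against 54.3%. Under it 4 neighbours and 7 relatives were called lower and 2 carriers higher, against 7, 12 and 1. The methods' t-test gave 1250 and 1227 genes unadjusted, and 107 and 137 after Benjamini-Hochberg adjustment. Unadjusted, it gave 15 lower neighbours, 7 lower kinase-like genes and 2 higher carriers. Adjusted, it gave 2 lower and 0 higher neighbours, 0 lower and 1 higher kinase-like gene, 0 lower and 0 higher carriers, and 1 lower and 1 higher relative; at an unadjusted p under 0.05 limma gave 1405 lower and 1352 higher genes. Quantile normalization gave 5 lower kinase-like genes, and brighter probe sets only gave 1 lower and 2 higher carriers. The replicate numbers do not pair the samples (correlations of deviations -0.04, -0.07 and -0.01). With the replicate block, 215 genes were lower and 338 higher, 3 and 4 neighbours, 1 lower carrier, and 6 and 10 relatives.

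Without 1 sample, the counts ran from 122 to 633 lower and 178 to 714 higher over all genes, 2 to 9 and 0 to 7 for neighbours, 0 to 5 and 3 to 6 for kinase-like genes, 0 to 1 and 1 to 2 for carriers, and 1 to 12 and 3 to 19 for relatives. The cause of these changes was not tested, beyond fewer samples where 1 was left out. No list gene past the test changed direction under these alternatives. Closest paralogs by sequence were not run, since no protein table was used here. Precision is limited by the 6 arrays, most of all for dim signals.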
